A study of Mus musculus with 37 samples.

Results

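The genes described here encode the nuclear subunits of the mitochondrial respiratory chain and of ATP synthase, measured in lungs of the mouse strains C57BL/6J (B6) and A/J before and just after birth. They were chosen by gene symbol alone, from the Nduf, Sdh, Uqcr, Cox, Cyc1 and Atp5 families, among the 19938 genes that the array reads with a probe set carrying 1 gene symbol. This gave 81 genes, of which 34 belong to complex I, 4 to complex II, 9 to complex III, 17 to complex IV and 17 to complex V. B6 lungs were taken daily between E15.5 and E18.5 (days of gestation) and as newborns (PN0, the birth day itself), and A/J lungs daily between E15.5 and E20.5 and at PN0. Each of the 12 groups held 3 replicates, and each replicate was a litter from which RNA of 3 right lungs of male pups was pooled. Both strains were unmanipulated inbred mice. B6 pups are born about a day before A/J pups, so PN0 lungs of B6 were younger than those of A/J. The last fetal sample of B6 (E18.5) lay a day before birth, while that of A/J (E20.5) lay only a few hours before it. The whole lung was measured, so fewer cells of a type and less RNA per cell cannot be told apart in any value given here. Values are log2 of the normalized array signal, and p-values measure the spread between litters. A change is given with its standard error and with the p-value of a limma fit adjusted over all 21789 probe sets tested, and a gene is called higher or lower where this adjusted p is under 0.05.

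The respiratory chain sits in the inner mitochondrial membrane. Complexes I (NADH dehydrogenase) and II (succinate dehydrogenase) feed electrons into coenzyme Q, complex III passes them to cytochrome c, and complex IV (cytochrome c oxidase) hands them to oxygen, while complex V (ATP synthase) uses the proton gradient to make ATP. Several complex IV subunits are encoded by alternative genes for heart and skeletal muscle, testis or the remaining tissues, and lung is the tissue best known for the second gene of subunit 4, Cox4i2. At birth the lung fills with air and its oxygen tension rises.

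Of the 81 genes, 65 were read by 1 probe set and 16 by several. For those, the probe set with the highest mean level stood for the gene. Another probe set of the gene passed the test in the same direction for 3 of 3 such genes called at birth in B6, 6 of 7 called at birth in A/J, 8 of 9 called over fetal life in B6 and 10 of 11 called over fetal life in A/J. For the difference between the strains in the change at birth it was 0 of 1, Cox7a2l. Of the 13 subunits encoded by mitochondrial DNA, 0 were measured. Only 3 of the 81 genes had a mean level under 6.41, the median of all values in the table. These were Cox7b2 and Cox8c, which are forms known from testis, and Cox8b, a form of heart and skeletal muscle. A dim probe set gives changes that are hard to tell from background.

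Promoters of 4 of the genes are shown, those with the 2 largest falls and the 2 largest rises over fetal life in A/J lungs. Atp5k, which encodes subunit e of ATP synthase, and Atp5g1, one of the genes for its c subunit, fell. Cox8b and Cox7a1, which encode muscle forms of cytochrome c oxidase subunits, rose. Each run is read 5′ to 3′ on the coding strand of the RefSeq annotation of GRCm38.p6, and spans 300 bases around the start of the gene, most of them before it. Capitals mark matches to 4 motifs searched on both strands, GCATGCG (the core of the NRF1 site), CCGGAAG (the ETS family), AAGGTCA (the core of the ERR site) and ACGTG (the hypoxia response core).
Atp5k (chr5:108434350-108434649, minus strand): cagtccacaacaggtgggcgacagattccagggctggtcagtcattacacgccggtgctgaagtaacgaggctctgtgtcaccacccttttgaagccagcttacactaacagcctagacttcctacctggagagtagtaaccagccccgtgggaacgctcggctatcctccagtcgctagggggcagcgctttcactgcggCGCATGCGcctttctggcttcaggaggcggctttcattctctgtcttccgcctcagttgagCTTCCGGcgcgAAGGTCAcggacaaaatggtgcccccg
Atp5g1 (chr11:96075582-96075881, minus strand): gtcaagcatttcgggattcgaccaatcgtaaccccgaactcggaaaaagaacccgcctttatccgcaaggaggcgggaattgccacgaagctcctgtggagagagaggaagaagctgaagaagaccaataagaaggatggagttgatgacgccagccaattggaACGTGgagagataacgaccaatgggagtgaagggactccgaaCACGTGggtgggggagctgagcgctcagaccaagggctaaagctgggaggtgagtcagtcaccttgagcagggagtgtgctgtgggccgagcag
Cox8b (chr7:140900397-140900696, minus strand): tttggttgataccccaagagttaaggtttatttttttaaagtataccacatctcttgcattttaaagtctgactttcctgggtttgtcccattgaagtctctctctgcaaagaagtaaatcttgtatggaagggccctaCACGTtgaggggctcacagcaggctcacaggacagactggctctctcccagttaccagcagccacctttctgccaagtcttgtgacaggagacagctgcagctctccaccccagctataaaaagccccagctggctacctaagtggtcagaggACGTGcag
Cox7a1 (chr7:30183921-30184220, plus strand): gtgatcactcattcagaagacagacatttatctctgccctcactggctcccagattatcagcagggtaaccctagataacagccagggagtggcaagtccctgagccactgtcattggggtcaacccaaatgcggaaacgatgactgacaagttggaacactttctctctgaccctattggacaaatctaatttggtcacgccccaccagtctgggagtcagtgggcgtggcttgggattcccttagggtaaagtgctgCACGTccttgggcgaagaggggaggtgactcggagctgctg
The window of Atp5k held 2 overlapping matches to GCATGCG, 1 to CCGGAAG and 1 to AAGGTCA. That of Atp5g1 held 3 matches to ACGTG, a pair of which overlap on opposite strands, that of Cox8b held 2 and that of Cox7a1 held 1. In the promoter table, 66 of the 81 genes were matched, with 71 windows. GCATGCG was found in 11 of these 71 windows, CCGGAAG in 17, AAGGTCA in 7 and ACGTG in 18. Of all 32851 windows of the table, 3.58% held GCATGCG, 8.86% CCGGAAG, 4.72% AAGGTCA and 19.6% ACGTG. A match describes the letters of the window and shows no binding.

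Markers of neighbouring tissues varied between litters. The mean of 8 lung markers lay between 9.45 and 12.06 at the ages compared. Lists of marker genes of heart muscle, skeletal muscle, brown fat, esophagus and upper airway, liver and red cells were averaged in each litter. In 9 of the 36 litters the esophagus, heart or liver markers lay more than 1 log2 unit above the lowest litter of the group. They were litter 1 of B6 at E15.5, litter 1 at E16.5 and litters 2 and 3 at E17.5, and litter 1 of A/J at E15.5, litter 2 at E19.5, litters 2 and 3 at E20.5 and litter 2 at PN0. The mean of the 8 esophagus markers was 5.76, 5.87 and 5.82 in B6 lungs at PN0 and 5.88, 6.13 and 5.58 at E18.5. It was 5.77, 7.31 and 5.81 in A/J lungs at PN0 and 5.68, 7.21 and 7.23 at E20.5. In A/J lungs at E18.5 it was 7.30, 7.14 and 6.97, high in all 3 litters. B6 at E18.5 also had a 4th array, titled 2b, which was averaged with array 2 as 1 litter. Over all probe sets array 2b correlated with array 2 at 0.988, with array 1 at 0.983 and with array 3 at 0.981, so its origin is not settled.

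Averaged over the 81 genes, the level moved down to E17.5, up to E18.5 and, in A/J, down again to E20.5. Each gene was set to its own mean over the 12 groups, and the deviations were averaged over the 81 genes. In B6 lungs this mean deviation was 0.08 ± 0.04 at E15.5, -0.02 ± 0.01 a day later, -0.17 ± 0.04 at its lowest (E17.5), -0.06 ± 0.10 at the last fetal age, E18.5, and -0.01 ± 0.04 in newborns (SD, n = 3 litters). The spread at E18.5 came from litter 2, at -0.174, while litters 1 and 3 were at -0.004 and -0.008. In A/J lungs it was 0.14 ± 0.05 at E15.5, 0.10 ± 0.03 a day later, -0.06 ± 0.03 at E17.5, 0.10 ± 0.04 a day after that, 0.00 ± 0.03 at E19.5, -0.11 ± 0.07 at its lowest (E20.5) and 0.01 ± 0.05 in newborns. The 3 litters at E17.5 lay below all 3 litters at E16.5 in both strains.

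From E16.5 to E17.5 the change was negative for 71 of 81 genes in B6 and for 68 in A/J, with medians of -0.16 and -0.18, while the median of all probe sets was 0.02 in each. From E17.5 to E18.5 it was positive for 57 genes in B6 (median 0.11, against -0.03 over all probe sets). In A/J it was positive for 61 genes, but the median of 0.14 was close to the 0.12 of all probe sets, and the esophagus markers averaged 7.30, 7.14 and 6.97 at E18.5 and 6.94, 6.36 and 6.81 at E17.5. Their part in this step was not tested. From E18.5 to E19.5 in A/J the median of the genes, -0.12, was again close to that of all probe sets, -0.10. From E19.5 to E20.5 it was -0.12, against 0.00 over all probe sets. The E15.5 lungs held the highest group mean for 47 of the 81 genes in B6 and for 32 in A/J.

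**Figure D1:**
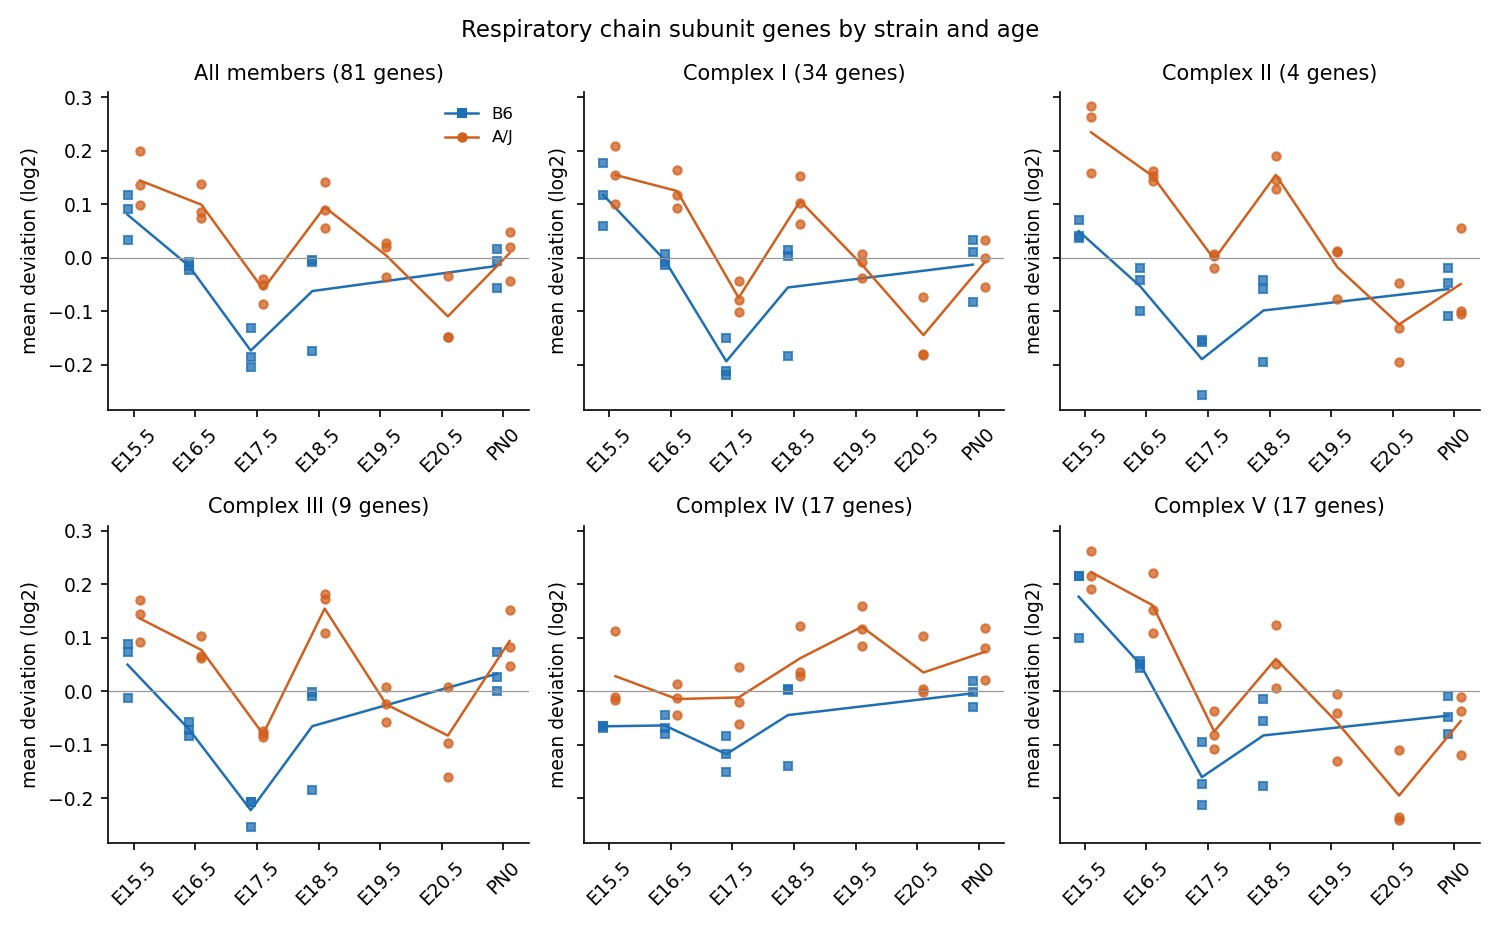
Mean deviation (log2) of the genes of each complex from their own mean over all groups, by strain and age, where each point is a litter (B6 squares, A/J circles) and lines join group means. In B6 all 5 complexes are lowest at E17.5, while complex IV stays between -0.12 and 0.12 in every group mean. The complex IV mean pools general subunits with tissue forms.

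The complexes did not follow the same course. ATP synthase had the deepest fall in A/J, with a mean deviation of -0.19 ± 0.07 at E20.5 and 0.22 ± 0.04 at E15.5 (SD, n = 3 litters). In B6 its genes were at -0.08 ± 0.08 at E18.5 and 0.18 ± 0.07 at E15.5. Complex IV was at -0.04 ± 0.08 at E18.5 and -0.07 ± 0.00 at E15.5 in B6, and at 0.04 ± 0.06 at E20.5 and 0.03 ± 0.07 at E15.5 in A/J. This mean pools general subunits with tissue forms, several of which rose. Its 9 general subunits alone changed between these ages by a median of -0.31 in B6 and -0.52 in A/J.

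Between the last fetal age and E15.5, B6 lungs at E18.5 had 38 of the 81 genes lower and 11 higher at an adjusted p under 0.05, and A/J lungs at E20.5 had 50 lower and 9 higher. Over all tested probe sets, 24.0% were lower and 22.1% higher in B6, and 26.1% lower and 25.3% higher in A/J. The median change of the genes was -0.19 in B6 and -0.29 in A/J, where the median of all probe sets was close to 0. The litters of the late and the early age did not overlap for 50 genes in B6 (52.3% of all probe sets) and for 61 in A/J (56.2%). Of the genes called in both strains, 36 fell and 7 rose, and 0 moved in opposite directions. How many of all probe sets were called in both strains was not counted. Complex I had 18 genes lower and 5 higher in B6, and 22 lower and 2 higher in A/J. Complex V had 11 lower and 1 higher in each strain. Complex III had 2 lower in B6 and 7 lower in A/J, and 0 higher in either, but without the litters high in markers 0 of its 9 genes passed in A/J, with 1 litter left at E20.5.
Litter 2 of B6 at E18.5 bears on the B6 count, since without it 24 genes were lower and 12 higher. Without the 9 litters high in markers, the lower genes of A/J numbered 27, with 1 litter left at E20.5, and 34 of the 49 calls of B6 and 35 of the 59 of A/J remained with their direction.

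In complex I, Ndufs1, the largest iron-sulfur subunit of the electron-transferring core, fell in both strains. Its values were 8.79, 9.14 and 9.04 in B6 lungs at E18.5 and 9.89, 9.79 and 9.87 at E15.5, a change of -0.86 ± 0.09 (adjusted p = 8.87e-10). In A/J lungs they were 8.87, 8.82 and 8.97 at E20.5 and 9.99, 10.06 and 9.80 at E15.5, a change of -1.06 ± 0.09 (adjusted p = 4.67e-12), or 2.09-fold lower. The ages did not overlap in either strain, and without the litters high in markers the changes were -0.84 and -1.06. Of the 6 core subunits measured, 4 fell in B6 and 5 in A/J. Ndufs7, a core subunit that carries the last iron-sulfur cluster before coenzyme Q, rose in both strains, with changes of 0.45 ± 0.09 (adjusted p = 5.49e-05) in B6 and 0.41 ± 0.09 (adjusted p = 0.000147) in A/J. Ndufv2, another core subunit, did not pass in B6 (-0.19 ± 0.09, adjusted p = 0.0756).

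The accessory subunits surround this core. Of 28, 14 fell and 4 rose in B6, and 17 fell and 1 rose in A/J. Over all probe sets 24.0% were lower and 22.1% higher in B6, and 26.1% lower and 25.3% higher in A/J. Ndufa6, an accessory subunit of the matrix arm, rose in both strains. It was at 8.34, 8.03 and 8.23 in B6 lungs at E18.5 and 7.61, 7.60 and 7.47 at E15.5. For A/J lungs the values were 8.54, 8.33 and 8.49 at E20.5 and 7.71, 7.72 and 7.65 at E15.5. Every late litter lay above every early one, and the changes were 0.64 ± 0.09 (adjusted p = 7.48e-07) and 0.76 ± 0.09 (adjusted p = 2.18e-08), the largest rise among the 81 genes in B6. Ndufs4, an accessory subunit needed for a stable complex, fell by 0.62 in B6 and by 0.83 in A/J (adjusted p = 1.88e-07 and 3.39e-10).

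In ATP synthase Atp5g1 and Atp5g3, genes of the c subunit, whose ring turns in the membrane, were among those that fell most. Atp5g1 was at 8.36, 8.07 and 8.37 in B6 lungs at E18.5 and at 9.12, 9.18 and 8.94 at E15.5. For A/J lungs the values were 8.32, 8.34 and 8.21 at E20.5 and at 9.58, 9.35 and 9.37 at E15.5. Again the ages did not overlap, and the changes were -0.81 ± 0.10 (adjusted p = 1.97e-08) and -1.14 ± 0.10 (adjusted p = 9.35e-12). Its second probe set gave -0.79 in B6 and -1.11 in A/J. Atp5g3, another gene for the same c subunit protein, changed by -0.54 ± 0.08 (adjusted p = 1.51e-06) and -0.90 ± 0.08 (adjusted p = 4.33e-11). Atp5g2 fell less and changed by -0.25 ± 0.08 (adjusted p = 0.00617) in B6, a call that was lost without litter 2 at E18.5 (-0.19, adjusted p = 0.0609). In A/J it changed by -0.17 ± 0.08 (adjusted p = 0.0675), while its other probe sets passed (-0.19 and -0.18, adjusted p = 0.0361 and 0.0488).

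Atp5k, which helps hold pairs of ATP synthase together, had the largest fall of all 81 genes in A/J. Its values were 8.15, 8.06 and 7.94 at E20.5 and 9.30, 9.09 and 9.28 at E15.5, a change of -1.17 ± 0.11 (adjusted p = 1.75e-10). In B6 they were 8.34, 8.21 and 8.55 at E18.5 and 9.04, 9.01 and 8.97 at E15.5, a change of -0.64 ± 0.11 (adjusted p = 1.88e-05). The litters of the 2 ages were apart in each strain. Of the 5 subunits of the catalytic head and its central stalk, 3 fell in B6 and 4 in A/J. Atp5d, a small central stalk subunit, rose in both, by 0.32 ± 0.09 (adjusted p = 0.00371) and 0.33 ± 0.09 (adjusted p = 0.00239).

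In complex IV the general subunits fell and several tissue forms rose. Of 9 general subunits, 6 were lower in B6 (median -0.31) and 7 lower in A/J (median -0.52), and 0 were higher. Cox6a1, the general form of subunit 6a, fell by 0.27 in B6 (adjusted p = 0.0139), a call that was lost without litter 2 (-0.21, adjusted p = 0.0878) or litter 3 (-0.23, adjusted p = 0.0665) at E18.5. In A/J its change was -0.64 ± 0.09 (adjusted p = 3.36e-07). Cox7a2, the general form of subunit 7a, changed by -0.58 ± 0.09 (adjusted p = 4.38e-06) in B6 and -0.53 ± 0.09 (adjusted p = 1.1e-05) in A/J. Cox6b1 changed by -0.31 ± 0.09 (adjusted p = 0.003) and -0.56 ± 0.09 (adjusted p = 1.18e-06). Cox4i1, the common form of the regulatory subunit 4, changed by 0.05 ± 0.07 (adjusted p = 0.636) and 0.02 ± 0.07 (adjusted p = 0.835), and Cox8a, the general form of subunit 8, by -0.14 ± 0.08 (adjusted p = 0.152) and -0.11 ± 0.08 (adjusted p = 0.274), and neither passed the test.

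The 3 muscle forms, Cox6a2, Cox7a1 and Cox8b, all rose in A/J lungs, by a median of 0.94, and 1 of them rose in B6, where the median was 0.27. The A/J interval ran to E20.5 and was longer than that of B6, which ended at E18.5. At E18.5 the A/J litters were at 6.33, 7.02 and 6.70 for Cox6a2. They were at 6.92, 7.26 and 7.33 for Cox7a1 and at 6.59, 6.25 and 6.16 for Cox8b. Cox7a1 was at 7.47, 7.37 and 7.48 in A/J lungs at E20.5 and 6.87, 6.17 and 6.46 at E15.5, a change of 0.94 ± 0.13 (adjusted p = 1.15e-07). Cox8b was at 7.09, 6.49 and 6.68 at E20.5 and 6.06, 5.57 and 5.53 at E15.5, a change of 1.03 ± 0.15 (adjusted p = 7.17e-07), and Cox6a2 changed by 0.66 ± 0.14 (adjusted p = 0.000144). For all 3 the E15.5 litter 1 was the highest at its age. In B6 Cox7a1 was at 6.73, 6.76 and 6.91 at E18.5 and 6.56, 6.45 and 6.63 at E15.5, a change of 0.25 ± 0.13 (adjusted p = 0.103). Cox8b changed by 0.46 ± 0.15 (adjusted p = 0.0124) in B6, which did not pass without litter 2 at E15.5 (0.36, adjusted p = 0.0917), and Cox6a2 by 0.27 ± 0.14 (adjusted p = 0.113).
Markers of heart muscle, which in the mouse also lines the pulmonary veins, also rose over fetal life. Of the 12 heart markers, 7 were higher at E18.5 in B6 (median 0.88) and 8 were higher at E20.5 in A/J (median 0.74). Without the litters high in markers these medians were 1.26 in B6 and 1.22 in A/J, with 1 litter left at E20.5. Their summed linear level lay between 6040 and 6590 in B6 at E18.5 and between 3030 and 5790 at E15.5, and between 7410 and 8700 in A/J at E20.5 and between 3090 and 10700 at E15.5. The highest E15.5 value was that of A/J litter 1, which also had the highest muscle forms. Of the 8 skeletal muscle markers, 1 was higher at E18.5 in B6 (median -0.06) and 5 were higher at E20.5 in A/J (median 0.43). Their summed linear level lay between 809 and 886 in B6 at E18.5 and between 670 and 761 at E15.5, and between 1300 and 1350 in A/J at E20.5 and between 667 and 944 at E15.5. The 3 brown fat markers, a tissue that also uses Cox8b and Cox7a1, had means between 4.42 and 4.90 over all litters, under the median of all values in the table. The part of heart and skeletal muscle in the rise was not tested.

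**Figure D2:**
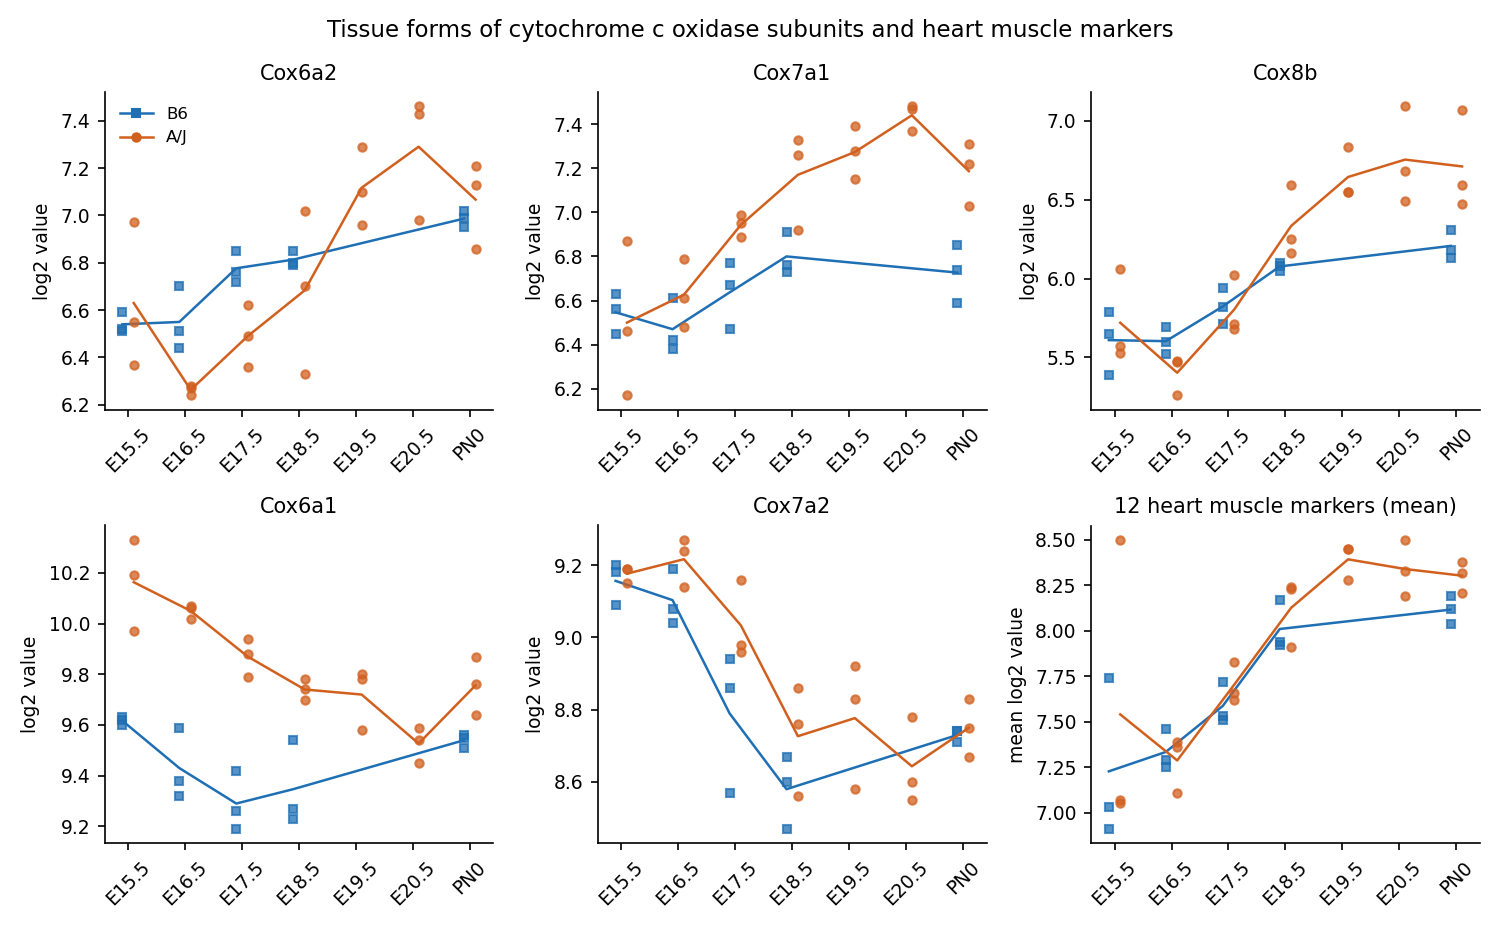
Log2 value of 3 muscle forms (Cox6a2, Cox7a1, Cox8b) and 2 general forms (Cox6a1, Cox7a2) of cytochrome c oxidase subunits, and the mean log2 value of 12 heart muscle markers, by strain and age; each point is a litter (B6 squares, A/J circles) and lines join group means. The muscle forms and the heart markers are high late in A/J, while Cox6a1 and Cox7a2 are highest at E15.5 or E16.5.

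Cox4i2, the subunit 4 form known from lung and responsive to low oxygen, rose over fetal life. In B6 lungs it was at 8.37, 8.12 and 8.29 at E18.5 and 7.70, 7.89 and 7.76 at E15.5, and in A/J lungs at 8.21, 8.06 and 7.81 at E20.5 and 7.81, 7.76 and 7.70 at E15.5. The ages did not overlap in B6, while the lowest E20.5 litter of A/J equalled the highest at E15.5. The changes were 0.48 ± 0.09 (adjusted p = 2.33e-05) and 0.27 ± 0.09 (adjusted p = 0.00878), and the A/J call was lost without litter 1 at E20.5 (0.18, adjusted p = 0.107). Cox7a2l, which joins complexes III and IV into supercomplexes, rose by 0.41 ± 0.08 (adjusted p = 5.49e-05) and 0.48 ± 0.08 (adjusted p = 3.63e-06), and its second probe set gave 0.59 in B6 and 0.30 in A/J. Of the forms known from testis, Cox6b2 rose by 0.40 ± 0.09 (adjusted p = 0.000439) and 0.38 ± 0.09 (adjusted p = 0.000699), and Cox8c changed by 0.09 and 0.01 without passing. Cox7b2 was the dimmest of the 81 genes, and its change in B6, 0.27 ± 0.10 (adjusted p = 0.0292), was lost without any of 5 of the 6 litters, with values between 0.13 and 0.28.

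In complex II, Sdha, the flavoprotein that oxidizes succinate, fell by 0.42 in B6 (adjusted p = 6.01e-06) and by 0.58 in A/J (adjusted p = 1.35e-08). Sdhb, the iron-sulfur subunit, changed by -0.20 ± 0.09 (adjusted p = 0.0537) in B6 and -0.33 ± 0.09 (adjusted p = 0.00158) in A/J. The membrane anchor Sdhc changed by -0.10 ± 0.08 (adjusted p = 0.315) and -0.43 ± 0.08 (adjusted p = 1.79e-05), and the other anchor, Sdhd, by 0.13 ± 0.10 (adjusted p = 0.287) and -0.10 ± 0.10 (adjusted p = 0.444). In complex III, Cyc1, which encodes cytochrome c1, changed by -0.28 ± 0.08 (adjusted p = 0.00423) in B6, lost without litter 2 at E18.5 (-0.16, adjusted p = 0.0912). In A/J it changed by -0.19 ± 0.08 (adjusted p = 0.0422), lost without any of 4 litters (litters 1 and 2 at E15.5 and 2 and 3 at E20.5, values -0.20 to -0.13).

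At birth the changes were smaller. In B6, 8 of the 81 genes were higher and 4 lower at PN0 than at E18.5, where 12.5% of all probe sets were higher and 14.4% lower. The members' shares were 9.88% higher and 4.94% lower. The median change was 0.03, against -0.01 for all probe sets, and PN0 and E18.5 litters did not overlap for 18 genes (34.6% of all probe sets did not). Complex I had 2 genes higher and 3 lower, complex II 1 and 1, complex III 3 and 0, complex V 2 and 0, and complex IV had 0 in either direction. The counts moved with litter 2 at E18.5, the litter of arrays 2 and 2b. Without it 2 genes were higher and 7 lower, and the median was -0.01. The summed linear level of the 12 heart markers lay between 8450 and 9300 at PN0 and between 6040 and 6590 at E18.5, without overlap, and 2 of the 12 were higher and 2 lower (median 0.27). That of the 7 liver markers lay between 587 and 928 at PN0 and between 420 and 681 at E18.5, and 0 of the 7 passed. Without the litters high in markers, which are of other groups, 4 of the heart and 3 of the liver markers were higher. Their part in the B6 changes was not tested. Leaving out litter 3 at PN0 left 3 higher genes, while litter 2 at PN0 or litter 1 at E18.5 left 1 or 2 lower ones.

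The 3 higher genes of complex III in B6 were Uqcrfs1, Uqcrq and Cyc1. Uqcrfs1, the Rieske iron-sulfur protein that takes electrons from coenzyme Q, was at 8.10, 8.11 and 8.04 in B6 lungs at PN0 and 7.62, 7.61 and 7.70 at E18.5. The newborn litters all lay above the fetal ones, with a change of 0.44 ± 0.09 (adjusted p = 0.000261). In A/J lungs it was at 7.82, 7.87 and 7.81 at PN0 and 7.81, 7.53 and 7.66 at E20.5. The lowest newborn litter equalled the highest fetal one, with a change of 0.17 ± 0.09 (adjusted p = 0.197), and the difference between these changes, B6 minus A/J, did not pass the test (0.27 ± 0.12, adjusted p = 0.171).

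Among the genes lower at birth in B6 were 3 accessory subunits of complex I. Ndufc1 was at 9.30, 9.09 and 9.19 at PN0 and 9.63, 9.52 and 9.48 at E18.5, a change of -0.35 ± 0.09 (adjusted p = 0.00393). Ndufb2 was at 6.38, 6.29 and 6.34 at PN0 and 6.76, 6.47 and 6.65 at E18.5, a change of -0.29 ± 0.09 (adjusted p = 0.015). Newborn and fetal litters were apart for both genes. Ndufb2 lost its call without litter 1 at E18.5 (-0.23, adjusted p = 0.102) or litter 2 at PN0 (-0.27, adjusted p = 0.0609). The third, Ndufa2, changed by -0.25 ± 0.09 (adjusted p = 0.0264) and lost its call without any of 4 litters (litters 1 and 3 at E18.5, 2 and 3 at PN0, values -0.24 to -0.17). In A/J, Ndufc1 changed by 0.03 ± 0.09 (adjusted p = 0.865) and Ndufb2 by 0.05 ± 0.09 (adjusted p = 0.777). The difference between the strains in these changes passed for neither gene (Ndufc1 -0.38 ± 0.13, adjusted p = 0.0539). In the other probe set of Ndufc1 it did pass (-0.44, adjusted p = 0.00751).

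In complex II the catalytic subunits went apart at birth in B6. Sdha was at 10.02, 10.05 and 10.21 at PN0 and 10.27, 10.41 and 10.23 at E18.5, a change of -0.21 ± 0.07 (adjusted p = 0.0245). Sdhb was at 8.69, 8.76 and 8.79 at PN0 and 8.60, 8.27 and 8.61 at E18.5, a change of 0.25 ± 0.09 (adjusted p = 0.0247). Newborn litters lay below the fetal ones for Sdha and above them for Sdhb, by narrow margins. Without litter 2 at E18.5 the changes were -0.16 (adjusted p = 0.144) and 0.14 (adjusted p = 0.259). Sdha also lost its call without litter 1 or 2 at PN0 (-0.17 and -0.19, adjusted p = 0.111 and 0.0933), and Sdhb without litter 2 or 3 at PN0 (0.25 and 0.23, adjusted p = 0.0678 and 0.0848). Ndufb8, an accessory subunit of complex I, changed by 0.24 ± 0.09 (adjusted p = 0.0458) and lost its call without litter 2 at E18.5 (0.09, adjusted p = 0.488), litter 2 at PN0 (0.20, adjusted p = 0.166) or litter 3 at PN0 (0.23, adjusted p = 0.105).

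In A/J, 23 of the 81 genes were higher and 4 lower at PN0 than at E20.5, where 12% of all probe sets were higher and 8.09% lower. The members' shares were 28.4% higher and 4.94% lower. Complex I had 11 genes higher and 1 lower, complex III 3 and 1, complex IV 3 and 1, complex V 6 and 1, and complex II 0 and 0. The median change was 0.10, against -0.02 over all probe sets, and the change was positive for 61 genes. PN0 and E20.5 litters did not overlap for 35 of the genes, and for 33.4% of all probe sets. Every one of the 27 called changes was under 1.5-fold.
The comparison moved with the litters high in esophagus markers, litters 2 and 3 at E20.5 and litter 2 at PN0. Leaving out litter 2 at E20.5 left 15 higher genes, litter 3 at E20.5 left 14, and litter 2 at PN0 left 15. Without all 9 litters high in markers, which removes these 3, 0 genes were higher and 1, Atp5g2, was lower (-0.45, adjusted p = 0.0321), the median was 0.00, and 2.83% of all probe sets were higher and 3.03% lower, with 1 litter left at E20.5. The mean deviation of the 81 genes at PN0 was 0.048 in litter 2 and -0.043 and 0.021 in the others, and at E20.5 it was -0.147 and -0.148 in litters 2 and 3 and -0.033 in litter 1. The summed linear level of the 8 esophagus markers lay between 471 and 1700 at PN0 and between 442 and 1540 at E20.5, and 0 of the 8 passed the test at birth in A/J (median -0.33). The lower genes numbered 1 without litter 1 at E20.5 or litter 1 at PN0. The part of these tissues in the change was not tested beyond these values.
Against E19.5, a day before birth and the interval that B6 offers, 8 genes were higher and 7 lower at PN0 in A/J (11.9% and 8.70% of all probe sets), with a median of 0.01. This comparison shares its PN0 litters with that from E20.5. The largest rise was that of Uqcrc1 (0.58 ± 0.10, adjusted p = 5.77e-05) and the largest fall that of Cox7a2l (-0.42 ± 0.08, adjusted p = 0.000223).

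**Figure D3:**
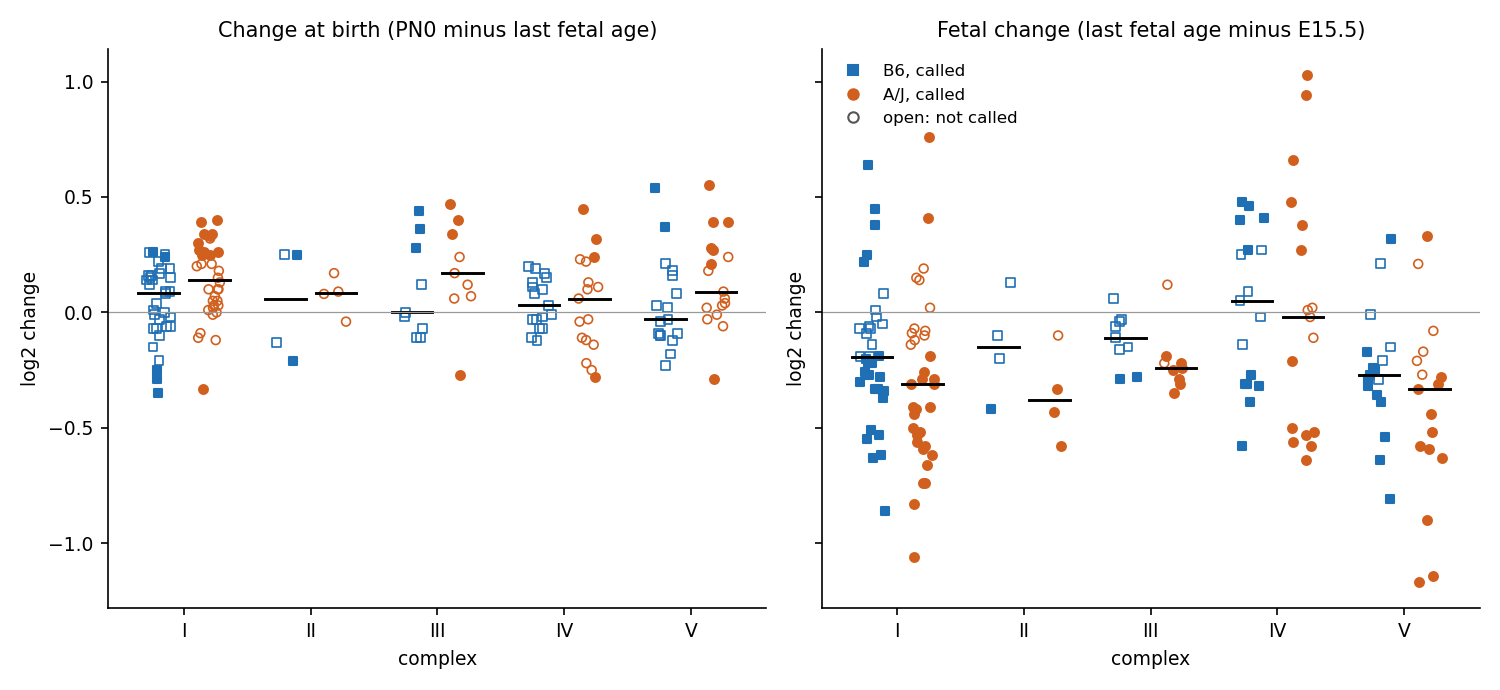
Log2 change at birth (left) and over fetal life (right) of each of the 81 genes, by complex, with B6 squares left of A/J circles; filled symbols passed the test (adjusted p under 0.05), open ones did not, and bars are medians. Changes at birth stay between -0.35 and 0.55, while fetal changes reach -1.17 and 1.03, with the largest rise in complex I in B6 (Ndufa6, 0.64) and in complex IV in A/J (Cox8b, 1.03).

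The largest rise at birth in A/J was that of Atp5md, a small membrane subunit of ATP synthase. It was at 11.07, 11.10 and 10.79 in A/J lungs at PN0 and at 10.55, 10.37 and 10.38 at E20.5, all newborn litters above the fetal ones, with a change of 0.55 ± 0.13 (adjusted p = 0.00194). In complex I the largest rises were those of Ndufb7 and Ndufb6, accessory subunits of the membrane arm. Ndufb7 was at 8.66, 8.79 and 8.91 at PN0 and 8.53, 8.33 and 8.29 at E20.5, a change of 0.40 ± 0.09 (adjusted p = 0.00123). Ndufb6 changed by 0.39 ± 0.08 (adjusted p = 0.000981). In B6 their changes were 0.14 ± 0.09 (adjusted p = 0.283) and 0.16 ± 0.08 (adjusted p = 0.176), and the difference between the strains passed for neither. Atp5g1, which had fallen over fetal life, was at 8.56, 8.74 and 8.74 at PN0 in A/J, above its 3 litters at E20.5, with a change of 0.39 ± 0.10 (adjusted p = 0.00397). Cox5a, a matrix-side subunit of complex IV, changed by 0.32 ± 0.09 (adjusted p = 0.0138) and lost its call without litter 3 at E20.5 (0.29, adjusted p = 0.0581) or litter 2 at PN0 (0.24, adjusted p = 0.112).

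The 4 genes lower at birth in A/J were Ndufa6, Uqcrh, Cox7a2l and Atp5g2. Uqcrh, the hinge protein of complex III, was at 9.58, 9.84 and 9.74 at PN0 and 10.06, 9.96 and 9.96 at E20.5, a change of -0.27 ± 0.08 (adjusted p = 0.0115). Atp5g2 was at 10.43, 10.66 and 10.63 at PN0 and 10.98, 10.80 and 10.80 at E20.5, a change of -0.29 ± 0.08 (adjusted p = 0.00649). Litter 1 was the lowest at PN0 and the highest at E20.5 for both genes. Without litter 1 at E20.5 or at PN0 neither passed (Uqcrh -0.24 and -0.20, adjusted p = 0.0589 and 0.0972, Atp5g2 -0.23 and -0.22, adjusted p = 0.058 and 0.0654). Atp5g2 thus stood at birth on the other side from Atp5g1 and Atp5g3, which encode the same c subunit and rose, Atp5g3 by 0.28 ± 0.08 (adjusted p = 0.0121). The call of Atp5g3 was lost without litter 2 at E20.5 (0.24, adjusted p = 0.0727) or litter 3 at PN0 (0.22, adjusted p = 0.0891).

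At birth 5 genes were higher in both strains, Ndufb9, Cyc1, Uqcrq, Atp5l and Atp5md, and 0 were lower in both. The share of all probe sets called in both strains at birth was not counted. Uqcrq, a small subunit of complex III, was at 8.41, 8.18 and 8.38 in B6 at PN0 and 8.10, 7.70 and 8.09 at E18.5, and at 8.54, 8.52 and 8.47 in A/J at PN0 and 8.04, 8.12 and 7.97 at E20.5. Newborn litters were above fetal ones in both strains, with changes of 0.36 ± 0.10 (adjusted p = 0.00941) and 0.47 ± 0.10 (adjusted p = 0.00154). The B6 call was lost without litter 2 at E18.5 (0.23, adjusted p = 0.126). Cyc1 was at 10.10, 10.10 and 10.20 in B6 at PN0 and 10.03, 9.61 and 9.93 at E18.5, and at 10.26, 10.40 and 10.27 in A/J at PN0 and 10.07, 9.99 and 9.85 at E20.5. Its ages were likewise apart, with changes of 0.28 ± 0.08 (adjusted p = 0.00907) and 0.34 ± 0.08 (adjusted p = 0.0023). The B6 call was lost without litter 2 at E18.5 (0.15, adjusted p = 0.147) or litter 3 at PN0 (0.24, adjusted p = 0.0503).

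Atp5l, subunit g of the ATP synthase membrane part, was at 8.89, 8.80 and 8.99 in B6 at PN0 and 8.35, 8.25 and 8.46 at E18.5, the largest rise in B6 (0.54 ± 0.09, adjusted p = 5.28e-05). In A/J it was at 8.85, 9.23 and 8.73 at PN0 and 8.49, 8.60 and 8.55 at E20.5, with litter 2 highest (0.39 ± 0.09, adjusted p = 0.00325). The ages were apart in both strains, and the A/J call was lost without litter 2 at PN0 (0.24, adjusted p = 0.0644). The other 5 probe sets of Atp5l gave changes between 0.50 and 0.55 in B6 and between 0.32 and 0.43 in A/J, and each passed the test. Several probe sets of such a small gene may read near-identical copies in the genome, which was not examined.
Atp5md was at 11.05, 11.15 and 11.16 in B6 at PN0 and 10.77, 10.75 and 10.74 at E18.5, again with the ages apart (0.37 ± 0.13, adjusted p = 0.0304). That call was lost without any of 5 litters (the 3 at E18.5 and litters 2 and 3 at PN0), at values between 0.35 and 0.38. Ndufb9 was at 8.76, 8.53 and 8.77 in B6 at PN0 and 8.53, 8.21 and 8.53 at E18.5, and at 8.71, 8.91 and 8.89 in A/J at PN0 and 8.81, 8.41 and 8.48 at E20.5. The ages overlapped in A/J, and in B6 the lowest newborn litter equalled the highest fetal ones, with changes of 0.26 ± 0.10 (adjusted p = 0.0377) and 0.27 ± 0.10 (adjusted p = 0.0418). Its calls did not pass without any of 3 litters in B6 (litter 2 at E18.5, 1 and 3 at PN0, values 0.16 to 0.23) and any of 4 in A/J (litters 2 and 3 at E20.5 and at PN0, values 0.19 to 0.24).

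The change at birth differed between the strains for 6 of the 81 genes when tested as a difference, B6 minus A/J. It was larger in B6 for 2 (3.80% of all probe sets) and smaller for 4 (7.37%). The members' shares were 2.47% and 4.94%. The 2 were Ndufa6 and Cox7a2l, and the 4 were Uqcrc1, Cox4i2, Ndufs4 and Atp5b. The list depends on the probe set that stands for a gene. The other probe sets of Ndufb11 (0.46, adjusted p = 0.00462) and Ndufc1 (-0.44, adjusted p = 0.00751) passed this test. That of Cox7a2l did not (0.23, adjusted p = 0.378). With E19.5 in place of E20.5 for A/J, so that both intervals are about a day, 4 genes differed, Ndufa6 and Cox7a2l upward (2.39% of all probe sets) and Uqcrc1 and Atp5b downward (5.24%). Both tests share the PN0 litters of A/J and all litters of B6.
Without litter 2 of B6 at E18.5 the first test called 9 genes downward in place of 4. Without the litters high in markers it called 0 genes, with 1.18% of all probe sets called upward and 1.23% downward, and the second kept Ndufa6, Cox7a2l and Uqcrc1.

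Uqcrc1, a core protein of complex III, had the largest difference. It was at 10.32, 10.66 and 10.75 in B6 lungs at PN0 and 10.83, 10.39 and 10.85 at E18.5, with a low litter 1 at PN0 and a low litter 2 at E18.5, and its change was -0.11 ± 0.10 (adjusted p = 0.463). In A/J lungs it was at 10.89, 10.96 and 11.09 at PN0, 10.66, 10.61 and 10.47 at E20.5 and 10.46, 10.28 and 10.47 at E19.5, with all newborn litters above the fetal ones and a change of 0.40 ± 0.10 (adjusted p = 0.00321) from E20.5. The difference was -0.51 ± 0.14 (adjusted p = 0.0133), and -0.69 ± 0.14 (adjusted p = 0.00209) with E19.5. The first did not pass without litter 3 of B6 at E18.5 (-0.43, adjusted p = 0.05) or litter 1 of B6 at PN0 (-0.39, adjusted p = 0.052). The second was -0.64 (adjusted p = 0.0477) without the litters high in markers. Leaving out litter 2 of B6 at E18.5 made the B6 change -0.26 (adjusted p = 0.034), a fall that then passed.

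Cox4i2 was at 8.23, 8.28 and 8.19 in B6 at PN0 and 8.37, 8.12 and 8.29 at E18.5, where the ages overlapped, and changed by -0.03 ± 0.09 (adjusted p = 0.881). In A/J it was at 8.37, 8.50 and 8.57 at PN0 and 8.21, 8.06 and 7.81 at E20.5, with all newborn litters higher, and changed by 0.45 ± 0.09 (adjusted p = 0.000259). The difference was -0.48 ± 0.12 (adjusted p = 0.00907). With E19.5 for A/J, where the litters were at 8.30, 7.99 and 8.23, it was -0.33 ± 0.12 (adjusted p = 0.0953), and it passed only when litter 2 of B6 at E18.5 was left out (-0.40, adjusted p = 0.0457). Of the 3 complex IV genes that were higher at birth in A/J, Cox4i2, Cox5a and Cox5b, Cox4i2 had also risen over fetal life, while Cox5a and Cox5b had fallen (-0.50 and -0.52).

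Ndufa6 was at 8.46, 8.19 and 8.38 in B6 at PN0 and 8.34, 8.03 and 8.23 at E18.5, and at 8.12, 8.20 and 8.04 in A/J at PN0 and 8.54, 8.33 and 8.49 at E20.5. Newborn A/J litters all lay below the fetal ones, while those of B6 overlapped, and the changes were 0.14 ± 0.09 (adjusted p = 0.297) and -0.33 ± 0.09 (adjusted p = 0.00974). The difference was 0.48 ± 0.13 (adjusted p = 0.0162), and 0.50 ± 0.13 (adjusted p = 0.016) with E19.5. The A/J fall did not pass without litter 1 at E20.5 (-0.29, adjusted p = 0.0548) or litter 3 at PN0 (-0.29, adjusted p = 0.0506), nor the difference without litter 2 of B6 at E18.5 (0.39, adjusted p = 0.056). The difference with E19.5 did not pass without that litter (0.42, adjusted p = 0.0525) or litter 1 of A/J at E19.5 (0.44, adjusted p = 0.0535), but it passed without the litters high in markers (0.63, adjusted p = 0.0243).

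Cox7a2l was at 9.55, 9.57 and 9.59 in B6 at PN0 and 9.45, 9.47 and 9.56 at E18.5, and at 9.17, 9.40 and 9.29 in A/J at PN0, 9.51, 9.58 and 9.61 at E20.5 and 9.77, 9.60 and 9.74 at E19.5. Newborn litters of A/J were all below the fetal ones, and the changes were 0.08 ± 0.08 (adjusted p = 0.553) and -0.28 ± 0.08 (adjusted p = 0.00983). The difference was 0.36 ± 0.11 (adjusted p = 0.0333), and 0.49 ± 0.11 (adjusted p = 0.00539) with E19.5. The A/J fall was lost without litter 1 at PN0 (-0.22, adjusted p = 0.0736). The first difference was lost without any of 8 litters (1 and 2 of B6 at E18.5, 2 and 3 of B6 at PN0, 2 and 3 of A/J at E20.5, 1 and 3 of A/J at PN0), at values between 0.30 and 0.36. The other probe set of the gene gave 0.04 in B6 and -0.18 in A/J (adjusted p = 0.238), and a difference of 0.23 (adjusted p = 0.378). Neither the A/J fall nor the difference thus passed in that probe set. Whether the probe sets of Cox7a2l read near-identical copies in the genome was not examined.

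Atp5b, the catalytic beta subunit of ATP synthase, was at 12.04, 12.25 and 12.31 in B6 at PN0 and 12.38, 12.25 and 12.27 at E18.5, and at 12.37, 12.40 and 12.43 in A/J at PN0 and 12.25, 12.18 and 12.14 at E20.5. Litter 1 was the lowest newborn of B6, and the newborn litters of A/J lay above the fetal ones. The changes were -0.10 ± 0.07 (adjusted p = 0.33) and 0.21 ± 0.07 (adjusted p = 0.0276), and the difference was -0.31 ± 0.10 (adjusted p = 0.0353), or -0.40 ± 0.10 (adjusted p = 0.00977) with E19.5. Both the A/J rise (lost without litter 2 or 3 at E20.5 or at PN0, values 0.19 to 0.21) and the first difference were near the threshold, and the difference was -0.23 (adjusted p = 0.12) without litter 1 of B6 at PN0 and was also lost without any of 5 other litters (1 of B6 at E18.5, 2 and 3 of A/J at both E20.5 and PN0, values -0.31 to -0.27).
For Ndufs4 the changes were -0.10 ± 0.08 (adjusted p = 0.463) and 0.26 ± 0.08 (adjusted p = 0.0258). Its difference of -0.35 ± 0.12 (adjusted p = 0.0479) was lost without any of 9 of the 12 litters, at values between -0.38 and -0.30 (all but 1 of B6 at E18.5 and litter 1 of A/J at both E20.5 and PN0), and with E19.5 it was -0.16 ± 0.12 (adjusted p = 0.492). The A/J rise of Ndufs4 was lost without litter 2 or 3 at E20.5 or litter 2 at PN0, at values between 0.20 and 0.23.

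**Figure D4:**
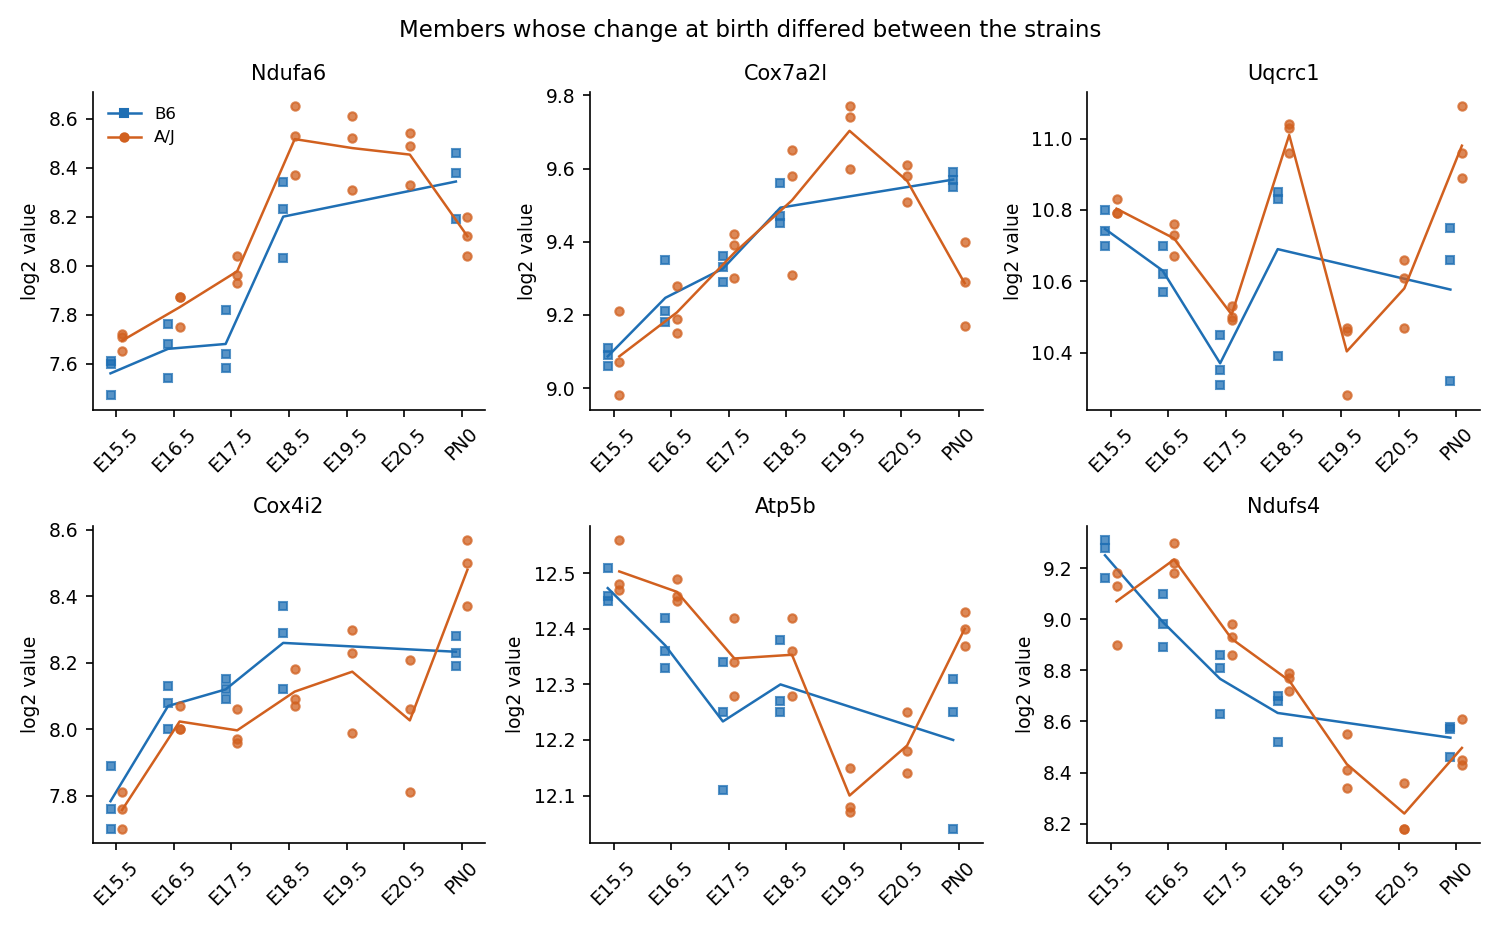
Log2 value of the 6 genes whose change at birth differed between the strains, by age; each point is a litter (B6 squares, A/J circles) and lines join group means. From E20.5 to PN0 the A/J means of Uqcrc1, Cox4i2, Atp5b and Ndufs4 go up and those of Ndufa6 and Cox7a2l go down, while the B6 litters of E18.5 and PN0 overlap in every panel.

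Between the strains, B6 lungs had lower values for 47 of the 81 genes and higher values for 3, averaged over the 4 shared fetal ages. Over all probe sets 27.2% were lower and 11.3% higher. The median difference, B6 minus A/J, was -0.13, against -0.03 over all probe sets. Complex I had 20 genes lower and 1 higher, complex II 3 and 1, complex III 6 and 0, complex IV 9 and 0 and complex V 9 and 1. The genes higher in B6 were Sdha (0.13 ± 0.03, adjusted p = 0.00455), Atp5e, an epsilon subunit of the central stalk (0.17 ± 0.05, adjusted p = 0.00914), and Ndufa12, an accessory subunit of complex I (0.17 ± 0.07, adjusted p = 0.0488), whose call was lost without any of 18 litters, at values between 0.12 and 0.18. Without the litters high in markers the median difference was -0.14, with 1 litter of B6 left at E17.5. Litters were left out by comparison with their own group, so all 3 A/J litters at E18.5 stayed in. The median difference of the 8 esophagus markers was then -0.38, against -0.27 with all litters. Leaving these litters out therefore cannot separate the strain difference from that in esophagus markers, whose part was not tested.
The excess at E18.5 alone moved with the scale of the arrays. There 34 genes were lower in B6 and 0 higher (27.7% and 4.08% of all probe sets), with a median of -0.18, but the median of all probe sets was -0.13. After the arrays were centred to equal medians, 10 were lower and 2 higher, and 12.2% and 6.9% of all probe sets. Without litter 2 of B6 at E18.5, 12 genes were lower. At this age 5 of the 8 esophagus markers were lower in B6, with a summed linear level between 441 and 621 in B6 and between 1210 and 1570 in A/J, and their part was not tested.

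Sdhc, a membrane anchor of succinate dehydrogenase, had the largest strain difference. It was at 9.62, 9.62 and 9.59 in B6 and 10.25, 10.33 and 10.06 in A/J at E15.5. At E18.5 it was at 9.50, 9.39 and 9.63 in B6 and 10.03, 10.08 and 10.15 in A/J, and at PN0 at 9.53, 9.21 and 9.39 in B6 and 9.84, 9.82 and 9.95 in A/J. Every B6 litter lay below every A/J litter at each of the 5 shared ages. The difference over the fetal ages was -0.59 ± 0.04 (adjusted p = 5.95e-13), or 1.51-fold lower in B6, and -0.49 ± 0.08 (adjusted p = 2.7e-05) at PN0. Without the litters high in markers it was -0.60.
Cox6a1 was at 9.62, 9.63 and 9.60 in B6 and 10.19, 10.33 and 9.97 in A/J at E15.5, and at 9.54, 9.23 and 9.27 in B6 and 9.70, 9.78 and 9.74 in A/J at E18.5. The strains did not overlap at either age, and the fetal difference was -0.54 ± 0.05 (adjusted p = 1.52e-10). At PN0 the difference was -0.22 ± 0.09 (adjusted p = 0.0917). Atp5g1 differed by -0.34 ± 0.05 (adjusted p = 2.61e-06) over the fetal ages, and its second probe set was called in the same direction. The array's probes were not compared with the genomes of the strains, so a base difference under a probe cannot be told apart from a difference in RNA.

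**Figure D5:**
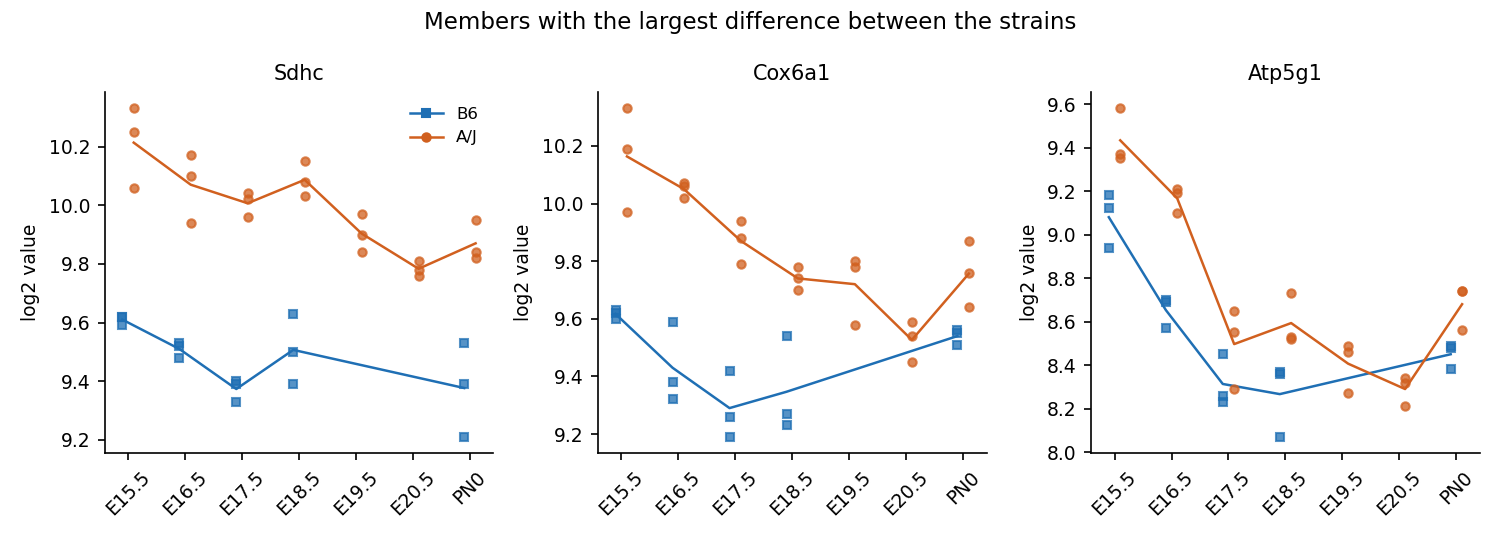
Log2 value of the 3 genes with the largest difference between the strains over the shared fetal ages, by age; each point is a litter (B6 squares, A/J circles) and lines join group means. Sdhc of B6 lies below that of A/J at every shared age, while the Cox6a1 difference, -0.54 over the shared fetal ages, is -0.22 at PN0.

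A day before birth, B6 at E18.5 against A/J at E19.5, 7 genes were lower in B6 (5.15% of all probe sets) and 1, Sdha, was higher (0.35 ± 0.07, adjusted p = 0.00105, 4.78% of all probe sets). The lower ones were Cox8b (-0.57), Cox7a1 (-0.47), Atp5l (-0.43), Sdhc (-0.40), Cox6a1 (-0.37), Ndufb9 (-0.33) and Ndufa5 (-0.28). The summed linear level of the 12 heart markers lay between 6040 and 6590 in B6 at E18.5 and between 7610 and 9040 in A/J at E19.5, and that of the 8 skeletal muscle markers between 809 and 886 in B6 and between 1060 and 1400 in A/J. Of these markers 2 of the 12 and 2 of the 8 were lower in B6 and 0 higher. At PN0, where the strains are not of equal age, 7 genes were lower in B6 (13.2% of all probe sets) and 5 higher (6.71%). The lower ones were Sdhc, Uqcrc1 (-0.40), the muscle forms Cox8b (-0.50) and Cox7a1 (-0.46), Ndufb2 (-0.38), Cox4i2 (-0.25) and Atp5b (-0.20). At PN0 the summed heart markers lay between 8450 and 9300 in B6 and between 9970 and 10700 in A/J, and the skeletal muscle markers between 852 and 944 in B6 and between 1150 and 1450 in A/J, with 1 of the 12 and 3 of the 8 lower in B6 and 0 higher. The B6 and A/J litters did not overlap in these sums at either age, and the part of muscle in the differences of Cox8b and Cox7a1 was not tested. The higher ones were Uqcrfs1 (0.25), Cox7a2l (0.28), Atp5e (0.36), Ndufc2 (0.43) and Ndufs6 (0.43). The calls of Cox4i2 and Atp5b were each lost without any of 5 of the 6 litters (values -0.27 to -0.20 and -0.23 to -0.12), that of Uqcrfs1 without any of the 6 (0.24 to 0.27), and that of Cox8b without litter 2 of A/J (-0.32, adjusted p = 0.184) or litter 2 or 3 of B6 (-0.49 and -0.47, adjusted p = 0.058 and 0.0656). Cox7a1 lost its call without litter 2 of B6 (-0.39, adjusted p = 0.0603) or of A/J (-0.40, adjusted p = 0.0541), Cox7a2l without litter 1 of A/J (0.23, adjusted p = 0.0676) and Atp5e without litter 1 of B6 (0.29, adjusted p = 0.0654).

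Other genes of mitochondrial energy metabolism were counted beside the subunits. Over fetal life 24.0% of all probe sets were lower and 22.1% higher in B6, and 26.1% lower and 25.3% higher in A/J. Assembly factors, which build the complexes, were lower for 23 of 43 and higher for 4 in B6, and lower for 27 and higher for 4 in A/J. Proteins of the mitochondrial ribosome, which makes the subunits encoded in mitochondrial DNA, were lower for 50 of 74 and higher for 1 in B6, and lower for 57 and higher for 2 in A/J. Of 16 genes of the tricarboxylic acid cycle, 7 were lower and 4 higher in B6, and 10 lower and 2 higher in A/J. Of 23 regulators of mitochondrial biogenesis, 11 were lower and 3 higher in B6, and 11 lower and 4 higher in A/J. Tfam, which packages and transcribes mitochondrial DNA, changed by -1.13 in B6 and -1.16 in A/J.
At birth 12.5% of all probe sets were higher and 14.4% lower in B6, and 12% higher and 8.09% lower in A/J. Of 43 assembly factors, 2 were higher and 9 lower in B6, and 9 higher and 0 lower in A/J. Of 18 genes for electron carriers and coenzyme Q synthesis, 5 were higher and 1 lower in B6, and 8 higher and 0 lower in A/J. Of 16 tricarboxylic acid cycle genes, 5 were higher and 3 lower in B6, and 9 higher and 2 lower in A/J. Mitochondrial ribosomal proteins were higher for 12 of 74 and lower for 8 in B6, and higher for 17 and lower for 1 in A/J. Glycolysis genes were lower for 11 of 15 in B6 (median -0.56) and for 13 of 15 in A/J (median -0.65). Without the litters high in markers, the glycolysis counts were 11 lower in B6 and 11 in A/J, with 1 litter left at E20.5. In A/J the higher genes then numbered 2 assembly factors, 3 for electron carriers and coenzyme Q synthesis, 2 of the tricarboxylic acid cycle and 1 of the mitochondrial ribosome, and 2.83% of all probe sets were higher.
Single genes of these lists moved further at birth than any of the 81 subunits. Cycs, which encodes the cytochrome c that carries electrons between complexes III and IV, changed by 0.61 ± 0.12 in B6 (adjusted p = 0.000295) and by 0.96 ± 0.12 in A/J (adjusted p = 1.11e-06), after fetal changes of -0.94 and -1.15. Coq10b, a coenzyme Q binding protein, changed by 0.81 in B6 and 0.68 in A/J. Slc2a1, the glucose transporter counted with glycolysis, changed by -0.74 in B6 and -1.47 in A/J, and Pfkl, the liver form of phosphofructokinase, by -1.40 and -1.50.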

How the data were processed

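The authors deposited log2 values made from scans of Affymetrix Mouse Gene 1.0 ST arrays with the RMA method (background correction, quantile normalization and summary of probes) in Affymetrix Expression Console 1.1. The table held 35556 probe sets on 37 arrays. The 21789 probe sets with 1 gene symbol in the platform annotation were tested, and 1621 with several symbols and 12146 with none were left out. The values of array 2b (B6, E18.5) and array 2 were averaged into 1 litter, giving 36 litters in 12 groups. Array medians lay between 6.34 and 6.54, and the number of litters limits the precision. All groups entered 1 limma 3.58.1 fit (lmFit and eBayes, R 4.3.3, 24 residual degrees of freedom), where comparisons were contrasts, errors are standard errors (SE) of the log2 change and p-values were adjusted by the Benjamini-Hochberg method over all 21789 probe sets, with a threshold of 0.05. The fit was tested on simulated data for the change at birth in A/J, run on 21789 probe sets. Of 100 changes of each size, 19% were recovered at 1.2-fold, 50% at 1.3-fold, 92% at 1.5-fold and 99% at 2-fold, with 8 false calls. Far fewer probe sets changed there than the 2610 higher and 1762 lower ones called in the data. The adjusted threshold was therefore stricter there, and recovery in the data can differ. Plots used Python 3.11.15 with matplotlib 3.10.9.

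Genes were named by a rule: within each complex the 2 largest rises and 2 largest falls at birth in each strain, the 3 largest strain differences, the 2 largest fetal rises and falls, all tissue forms and all of complex II. This gave 35 genes. Cyc1, Ndufs4, Atp5b, Ndufa2, Atp5g3, Ndufs7, Atp5d, Ndufa12 and Atp5e were named after their values were seen, as were the genes given with a single value. The members and lists were chosen with earlier results of these data known. As alternatives, array scaling was changed, as were the set of probe sets tested, the probe set standing for a gene, a filter on dim probe sets, the prior, the groups fitted, a fold threshold, array 2b, a replicate block and each litter left out. A further one, chosen after seeing the data, left out litters high in markers of neighbouring tissue. The time-course and variance methods of the study were not run.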

Additional observations from a re-analysis of the deposited data

Results flagged for a closer look

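The change at birth differed between the strains for 6 genes by the test of the difference itself (limma, B6 minus A/J, 3 litters a group). From E20.5 in A/J, it was larger in B6 for 2.47% of the 81 genes, against 3.80% of all probe sets. It was smaller in B6 for 4.94% of the genes, against 7.37% of all probe sets. With E20.5 as the fetal age of A/J, the differences were 0.48 for Ndufa6 (adjusted p = 0.0162), 0.36 for Cox7a2l (adjusted p = 0.0333), -0.31 for Atp5b (adjusted p = 0.0353), -0.35 for Ndufs4 (adjusted p = 0.0479), -0.48 for Cox4i2 (adjusted p = 0.00907) and -0.51 for Uqcrc1 (adjusted p = 0.0133). In the other probe set of Cox7a2l the difference with E20.5 did not pass (0.23, adjusted p = 0.378). With E19.5 the differences were 0.50 for Ndufa6, 0.49 for Cox7a2l, -0.40 for Atp5b and -0.69 for Uqcrc1. Their dependence on single litters is given with each gene in the report.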

How the results depend on the processing

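With the replicate number as a block, counts of higher and lower genes were 7 and 4 at birth in B6, 22 and 4 in A/J, 8 and 6 from E19.5 in A/J, 2 and 3 for the strain difference at birth, 2 and 2 for that difference with E19.5, 11 and 39 over fetal life in B6, 9 and 49 in A/J, 3 and 47 between strains over the fetal ages, 0 and 33 at E18.5, 1 and 8 a day before birth, and 6 and 7 at PN0. Litters of the same number deviated together no more than others (median correlation -0.015 over 198 pairs, against 0.004 over 396), so the numbers were not taken as pairing. No count moved by over 1.5 times under the block or with the mean of a gene's probe sets.

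Other settings moved some counts. Centring each array gave 2 lower genes at birth in B6, 4 lower from E19.5 in A/J, 1 higher and 2 lower for the strain difference at birth, 2 higher and 10 lower in B6 at E18.5, and 2 higher a day before birth. Testing all probe sets gave 5 higher at birth in B6. Without dim probe sets, which removed Cox7b2, 4 were higher for the difference with E19.5, 5 between strains, and 4 higher and 11 lower a day before birth. With a trended, robust prior 5 were higher between strains and 4 a day before birth. Fitting only the groups compared, with fewer residual degrees of freedom, gave 3 higher and 1 lower at birth in B6, 13 and 1 in A/J, 3 and 4 from E19.5, 0 and 0 for the strain difference at birth, 1 and 0 with E19.5, 4 lower at E18.5, 0 and 3 a day before birth, and 3 and 4 at PN0. Asking also for a fold of 1.5 left 0 at birth in either strain from any age, 0 for the strain difference, 0 higher and 1 lower with E19.5, 1 and 5 over fetal life in B6, 4 and 13 in A/J, 0 and 1 between strains, and 0 at E18.5, a day before birth and at PN0. Leaving out array 2b gave 14 higher at birth in B6, 2 lower for the strain difference and 11 lower a day before birth, and taking it as its own replicate gave 13 higher at birth in B6, and 2 higher and 12 lower a day before birth. Without the litters high in markers, chosen after seeing the data, there were 0 higher and 1 lower at birth in A/J, 3 and 4 from E19.5, 0 and 0 for the strain difference, 1 lower with E19.5, 27 lower over fetal life in A/J and 4 lower at PN0. Among values that passed before or after, signs turned for Cox7a2l between strains (0.12 with the mean of its probe sets, adjusted p = 0.0132). Without the litters high in markers they turned for Ndufb9 at birth in A/J (-0.01) and Uqcrfs1 over fetal life in A/J (0.00). The causes were not tested.

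With each litter left out in turn, higher genes numbered 2 to 12 and lower 1 to 7 at birth in B6, 14 to 23 and 1 to 4 in A/J, 4 to 8 and 4 to 6 from E19.5, 0 to 2 and 2 to 9 for the strain difference, 1 to 3 and 2 to 3 with E19.5, 8 to 12 and 24 to 38 over fetal life in B6, 8 to 9 and 42 to 53 in A/J, 2 to 5 and 42 to 49 between strains, 0 to 1 and 12 to 36 at E18.5, 1 to 3 and 5 to 9 a day before birth, and 3 to 7 and 3 to 6 at PN0. Of 7296 values of named genes under all settings, 6735 kept their side of the threshold, 461 lost the call and 97 gained one. A further 3 changed sign with a call before or after. Changes of sign between values that did not pass were not counted. Changes under about 1.3-fold are at the limit of 3 litters a group.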
